A study of Ovis aries with 5 samples.

Results

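Flanking acetylated regions are H3K27ac regions of fetal sheep fat that carry no H3K4me3 region of their own but lie within 5 kb of one. They were selected on measured peak positions: a region of the joint H3K27ac list on chromosomes 1 to 26 was taken when it shared no base with the joint H3K4me3 list and its nearest edge lay 1 to 5000 bp from a region of that list. This gave 2324 flanking regions of the 34899 autosomal H3K27ac regions (6.66%), or 35266 with the other chromosomes counted. They made up 8.84% (95% Wilson interval 8.50 to 9.19%) of the 26301 autosomal H3K27ac regions without H3K4me3 and covered 11.9 Mb. With the peaks of replicate 1 alone for both marks the same rule gave 4009 regions, and with those of replicate 2 alone 3936, so the number rests on requiring both libraries. The remaining 23977 regions without H3K4me3 lay over 5000 bp from it and are called distal here, and 8598 regions overlapped it.

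H3K27ac, acetylation of lysine 27 on histone H3, marks both active promoters and active enhancers, whereas H3K4me3, trimethylation of lysine 4, is concentrated at promoters. Acetylated nucleosomes commonly spread outward from a promoter, and enhancers can also lie close to the promoter they act on, so acetylation just beyond H3K4me3 belongs to a border zone that neither mark assigns by itself. H3K27me3, trimethylation of lysine 27, is the mark of Polycomb repression and cannot sit on the same histone tail as H3K27ac.

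The tissue was perirenal adipose tissue, the fat around the kidney, of wild type pure bred Merino fetuses, aged 132 days by the sample labels and with no treatment. The ewes were kept on a maintenance diet. Each mark was measured in 2 libraries, replicate 1 and replicate 2, and by the sample titles both marks of a replicate came from the same animal. Chromatin was cut by micrococcal nuclease, precipitated with antibodies ab4729 (H3K27ac) or ab8580 (H3K4me3) and set against 1 input library pooled from the fetuses. After duplicates were removed the H3K27ac libraries held 144 and 145.7 M tags, the H3K4me3 libraries 92.88 and 109.7 M and the input 26.65 M. Every sample came from the same tissue and stage, so the design holds no treatment or stage to compare, and an exact paired permutation test of 2 libraries cannot give a p below 0.5. Values are therefore given for each library side by side, without tests. Bulk chromatin mixes cell types, and fewer cells with a mark cannot be told apart from less of the mark per cell. Genes, sequences and cell type markers at these positions were not analysed here, apart from gene names that the study attached to its sweep regions.

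Flanking regions were of ordinary size and strength for regions without H3K4me3. Their median length was 4294.5 bp, with a range of 1212 to 31616 bp, against 4331 bp for distal regions and 4230.5 bp for regions on H3K4me3. In replicate 1 the H3K27ac peaks of a flanking region held a median of 574 tags (range 160 to 6862), and in replicate 2 a median of 529 (range 157 to 6645). A count of 574 tags has an exact 95% Poisson interval of 528 to 623, which covers counting error only. Distal regions held 562 and 551 tags and regions on H3K4me3 held 647 and 558, in replicates 1 and 2. The order of flanking and distal regions thus differed between the animals, with flanking regions higher in replicate 1 and lower in replicate 2.

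The same held per unit of length. Tag density within the peaks was 148 and 144 tags per kb in flanking regions, 146 and 146 in distal regions and 164 and 155 in regions on H3K4me3. Fold enrichment over the input, as the peak caller gives it, had medians of 24.76 and 24.35 in flanking regions, 24.27 and 24.46 in distal regions and 31.6 and 29.52 on H3K4me3. By both measures the gap from flanking to distal medians was small and changed sign with the library, whereas regions on H3K4me3 were higher in both libraries.

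**Figure D1:**
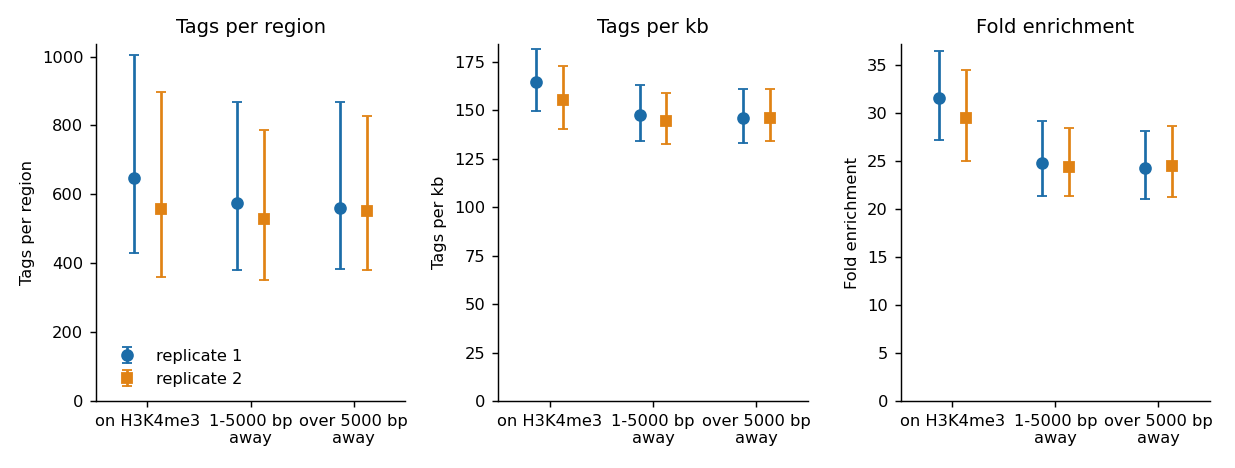
Median (points) and quartiles (bars) of H3K27ac tags per region, tags per kb and fold enrichment over input, by library, for regions on H3K4me3 (n = 8598), 1 to 5000 bp from it (n = 2324) and farther away (n = 23977). Flanking and distal medians are alike, and both lie below those on H3K4me3, for fold enrichment at 24.76 and 24.27 against 31.6 in replicate 1.

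Flanking regions were most numerous right beside H3K4me3. The median gap was 2143.5 bp, with quartiles of 820.5 and 3650.75 bp. Gaps of up to 500 bp held 389 regions and gaps of 500 to 1000 bp held 284. Per 500 bp of gap there were then 219 regions from 1 to 2 kb, 182 from 2 to 3 kb, 200.5 from 3 to 4 kb and 224 from 4 to 5 kb. Beyond the limit the density was 190.7 regions per 500 bp from 5 to 10 kb, above the 182 from 2 to 3 kb. It fell to 51.1 from 50 to 100 kb. The density was thus highest within the first 1000 bp and uneven from there to the limit. The position of H3K4me3 relative to the region had no preferred direction on the chromosome, at lower coordinates for 1135 regions and at higher coordinates for 1189.

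The values on either side of the 5 kb limit are given once as a description. The 220 regions just inside it, at 4.5 to 5 kb, held medians of 580.5 and 589.5 tags with 24.56- and 25.21-fold enrichment. The 213 regions just outside, at 5 to 5.5 kb, held 579 and 542 tags with 24.62- and 24.36-fold enrichment. The H3K27ac summit was on the side of the middle that faces H3K4me3 in 45.9% and 47.3% of the regions just inside and in 56.3% and 55.9% of those just outside. Median tags were nearly equal across the limit in replicate 1 and lower outside it in replicate 2, and the share of facing summits was higher outside it in both.

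The gap itself depended on which animal drew the edges. A joint region spans the peaks of both replicates, so its edges are the outermost ones. Gaps were also measured between the peaks of a single library that passed the thresholds of the joint lists. The median gap of the same regions was then 2725 bp in replicate 1 and 2545 bp in replicate 2. The gaps of the 2 libraries differed by a median of 403 bp (quartiles 117 and 1134.25 bp). By its own peaks, replicate 1 placed 294 flanking regions over 5000 bp from H3K4me3 and replicate 2 placed 158 there. The peak caller used a fragment length of 200 bp for H3K27ac and of 124 and 120 bp for H3K4me3, and the part of this difference in the smallest gaps was not tested.

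Although no flanking region overlaps the joint H3K4me3 list, many held an H3K4me3 peak that this list leaves out. The joint list needs a peak at a false discovery rate (FDR) of at most 1% in both libraries. Since H3K4me3 chose the regions, these counts are descriptions. An H3K4me3 peak of replicate 1 at any FDR overlapped 774 flanking regions (33.3%), where the share over all autosomal H3K27ac regions was 38.7% and over distal regions 17.3%. A peak of replicate 2 overlapped 1204 (51.8%), where all regions gave 53.2% and distal regions 36.6%. The share over all regions contains those on H3K4me3, nearly all of which hold such a peak. A peak of either library lay in 1287 flanking regions (55.4%), where the share over all regions was 55.9% and over distal regions 40.1%. Peaks of both libraries lay in 691 (29.7%), where all regions gave 36.0% and distal regions 13.8%. At an FDR of at most 1%, 188 flanking regions (8.09%) held a peak of replicate 1, where all regions gave 26.6% and distal regions 2.15%. For replicate 2 this was 177 (7.62%), where all regions gave 27.2% and distal regions 3.1%. The flanking share was thus above the distal share at each of these settings. It was below the share over all regions for replicate 1, for peaks of both libraries and at an FDR of at most 1%. At any FDR, the flanking shares for replicate 2 and for either library were near those over all regions. Their Wilson intervals, 49.8 to 53.8% and 53.4 to 57.4%, contained the shares over all regions.

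These unlisted peaks, called weak here, had lower medians than the listed ones. The selection in part fixes this, since the joint list needs an FDR of at most 1% in both libraries. In replicate 1 there were 938 unlisted peaks, with a median of 147 tags and 24.9-fold enrichment, where the peaks behind the joint H3K4me3 list had 507 tags and 54.8-fold. In replicate 2 there were 1460, with 201.5 tags and 30.5-fold against 722 tags and 71.9-fold. The median FDR of the unlisted peaks was 1.785% and 2.26%, and 205 of replicate 1 and 182 of replicate 2 had an FDR of at most 1%. The unlisted peaks leaned toward the listed H3K4me3 region: the middle of the peak was closer to the edge facing it than to the far edge for 612 peaks of replicate 1 (65.2%) and 861 of replicate 2 (59.0%). Peaks that crossed an edge of the flanking region were included, and the same share was not counted for distal regions.

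The share with weak H3K4me3 fell with distance in both libraries. At gaps of up to 500 bp it was 60.2% in replicate 1 and 72.2% in replicate 2. From 500 to 1000 bp it was 42.6% and 60.6%, and from 1 to 2 kb it was 26% and 42.9%. From there to 5 kb it stayed between 21.9 and 27.2% in replicate 1 and between 44.9 and 47.4% in replicate 2. Just inside the limit it was 25.5% and 46.8% and just outside 23.9% and 40.4%. At over 100 kb it was 13.3% and 33.6%. Replicate 2 gave the higher share in every bin and had the more deeply sequenced H3K4me3 library.

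**Figure D2:**
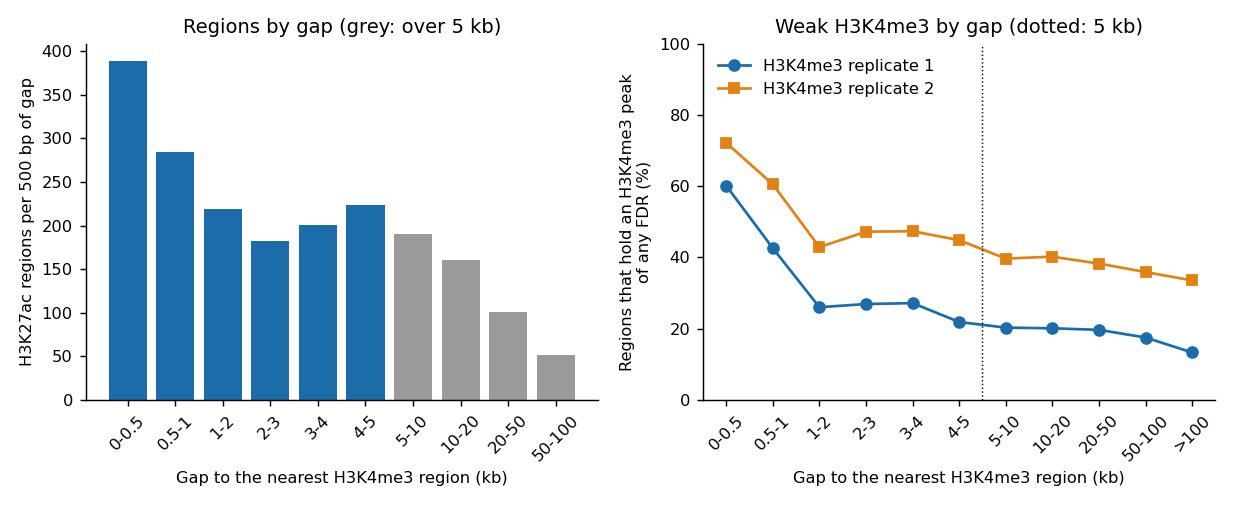
Left, H3K27ac regions per 500 bp of gap to the nearest H3K4me3 region, with regions over 5 kb away in grey (those over 100 kb are not drawn). Right, percent of regions in each gap bin that hold an H3K4me3 peak of any FDR in replicate 1 or 2, which falls from 60.2 and 72.2% below 500 bp to 21.9 and 44.9% at 4 to 5 kb.

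The acetylation inside the nearest flanking regions was also tilted toward H3K4me3. On a scale from 0 at the edge that faces H3K4me3 to 1 at the far edge, the H3K27ac summit of regions up to 500 bp away had a median position of 0.380 in replicate 1 and 0.396 in replicate 2. The summit was on the facing side of the middle in 63.0% and 60.7% of them. At 500 to 1000 bp the median positions were 0.466 and 0.455, and at 4 to 5 kb they were 0.508 and 0.502, close to the middle. The share on the facing side at 500 to 1000 bp was 57.7% and 55.6%, near the 56.3% and 55.9% just outside the 5 kb limit. From 1 to 5 kb it ranged from 46.7 to 51.9%. The tilt was thus largest at gaps of up to 500 bp in both animals.

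**Figure D3:**
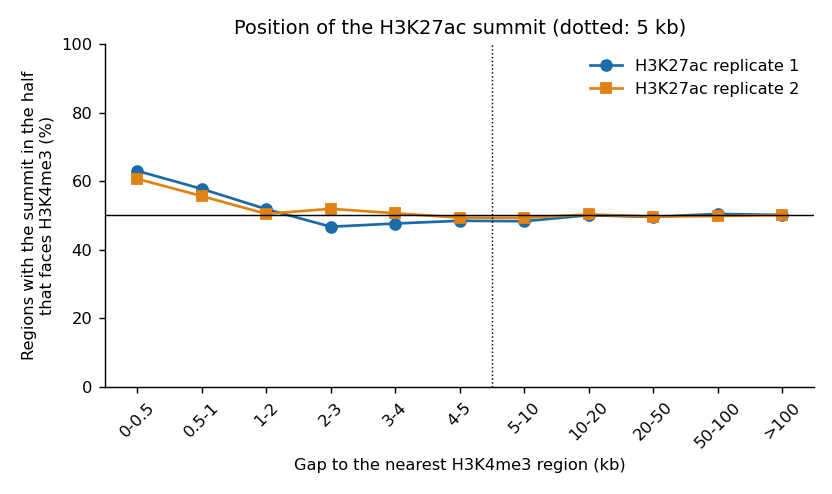
Percent of H3K27ac regions whose summit lies on the side of the region's middle that faces H3K4me3, by gap, in each library. It starts at 63.0 and 60.7% at gaps of up to 500 bp and runs near the horizontal line of 50% from 1 kb outward, including regions beyond the 5 kb limit (dotted).

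Most flanking regions sat beside an H3K4me3 region that was itself acetylated. The 2324 flanking regions lay nearest to 2131 H3K4me3 regions, 13.9% of the 15350 on the autosomes. Of these, 1950 had 1 flanking region nearest to them, 169 had 2 and 12 had 3. Counting every H3K4me3 region within 5 kb, 2338 had flanking acetylation, 2169 on 1 side and 169 on both sides (7.23%). Only 76 flanking regions had an H3K4me3 region within 5 kb on each side. Among the 2131, 1390 overlapped a joint H3K27ac region (65.2%, Wilson interval 63.2 to 67.2%), where the share over all autosomal H3K4me3 regions was 56.7% and over the 13219 others 55.3%.

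The H3K4me3 regions with a flanking neighbour were longer and less often marked by H3K27me3. Their median length was 3044 bp against 2636 bp for the others. Their median H3K4me3 tags were 558 in replicate 1 and 895 in replicate 2, against 514 and 721, and their fold enrichment was 56.31 and 75.24 against 55.11 and 71.76. Their tags per kb were 238 and 320 against 236 and 304, closer to those of the others than tags per region. They were thus higher in both libraries on each measure, by a narrow margin for fold enrichment and tags per kb in replicate 1. H3K27me3 overlapped 134 of them (6.29%, interval 5.33 to 7.40%), where the share over all H3K4me3 regions was 12.9% and over the others 13.9%.

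By the state of the neighbouring H3K4me3 region, flanking regions fell into 4 groups. A joint H3K27ac region covered it for 1524 flanking regions (65.6%). An H3K27ac peak that was above the FDR limit of 10% in at least 1 library covered it for 337 (14.5%), whereas 7.09% of all H3K4me3 regions were in that state. Only peaks within the limit, each without a partner in the other library, covered it for 286 (12.3%), a state of 15.1% of all H3K4me3 regions. For 177 (7.62%) the H3K4me3 region held no H3K27ac peak at all, a state of 21.1% of all H3K4me3 regions, so that acetylation was called only beside it.

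The flanking regions next to H3K4me3 with an H3K27ac peak above the FDR limit were the longest and held the most tags, with medians of 5023 bp, 680 tags in replicate 1 and 656 in replicate 2. Those next to a listed acetylated H3K4me3 region had 4211.5 bp, 557.5 and 512.5 tags, and those next to H3K4me3 without acetylation had 4008 bp, 502 and 473 tags. Tag density differed less, at 152 and 151 tags per kb in the first of these groups and 143 and 142 in the last. H3K27me3 lay on 22.8% of the unacetylated H3K4me3 neighbours and on 3.88% of the listed acetylated ones. In the first of these groups the neighbour held an H3K27ac peak above the FDR limit in at least 1 library and overlapped no joint H3K27ac region. The grouping did not require a peak there in the other library.

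In many cases only a short break separated the flanking region from the acetylation on H3K4me3. Whether both belong to the same stretch of acetylation was not tested. For the 1524 flanking regions beside a listed acetylated H3K4me3 region, the median break between both H3K27ac regions was 958.5 bp (quartiles 295 and 2463.5 bp). It was at most 1000 bp for 776 (50.9%) and at most 200 bp, about a nucleosome with its linker, for 276. Within single libraries and at any FDR, replicate 1 had an H3K27ac peak on the neighbouring H3K4me3 region for 2090 flanking regions (89.9%) and replicate 2 for 1901 (81.8%). Such peaks are common on H3K4me3: only 21.1% of all autosomal H3K4me3 regions held none of either library. That share was not counted for each library. The median break was 1257 bp in replicate 1 and 1492 bp in replicate 2, and it was at most 200 bp for 272 and 158 flanking regions.

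Flanking regions also had closer acetylated neighbours of any kind. Another joint H3K27ac region lay within 1 kb of 973 flanking regions (41.9%), where the share over all autosomal H3K27ac regions was 24.6%, over distal regions 20.9% and over regions on H3K4me3 30.3%. For 1328 flanking regions (57.1%), the nearest other H3K27ac region was one on the same H3K4me3 region. The median distance to the nearest other H3K27ac region was 1564 bp against 6580 bp for distal regions. Since the rule places each flanking region near H3K4me3, which is often acetylated, the rule itself contributes to this closeness.

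H3K27me3 was rare on flanking regions. It overlapped 48 of them (2.07%, interval 1.56 to 2.73%), where the share over all autosomal H3K27ac regions was 1.78%, over distal regions 0.751% and over regions on H3K4me3 4.56%. The share of flanking regions lay between those of the other classes and near that of all regions, which its interval contains. The intervals cover counting error only. For 29 of the 48 (60.4%) the nearest H3K4me3 region also carried H3K27me3, compared with 115 of the other 2276 (5.05%). The 48 had medians of 557.5 and 493 tags and 23.88- and 22.13-fold enrichment, near those of all flanking regions.

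Between replicates, tags of a flanking region spread more widely than its tag density. Density was taken within called peaks, and each region holds a peak in both libraries, so the calling threshold bounds it. Tags scaled to the filtered tag total of each library gave a median log2 ratio of replicate 2 to replicate 1 of -0.10 (SD 0.54 over regions, range -4.41 to 2.31), and tags per kb gave -0.04 (SD 0.16). Across the 2324 regions tags had a Pearson correlation of 0.80 and a Spearman correlation of 0.78 between replicates, a description over regions that share their libraries. Replicate 2 was over 1.5-fold higher in 144 regions (6.20%), where 6.46% of all autosomal H3K27ac regions were. Replicate 1 was over 1.5-fold higher in 366 (15.7%), where 13.0% of all regions were. In tags per kb, 2 flanking regions (0.0861%) were over 1.5-fold apart in either direction, where 0.138% of all regions were. The shares higher in replicate 2 and apart in tags per kb were near those of all regions. The share higher in replicate 1 had a Wilson interval of 14.3 to 17.3%, above that of all regions. The tilt toward replicate 1 was present in every class. Of regions on H3K4me3, 15.9% were over 1.5-fold higher in replicate 1 and 2.51% in replicate 2. Of distal regions, 11.7% were higher in replicate 1 and 7.90% in replicate 2.

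**Figure D4:**
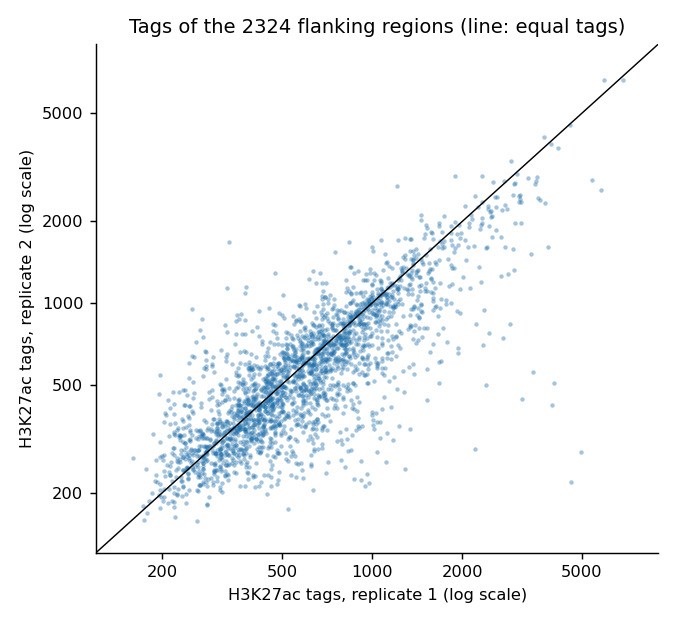
H3K27ac tags of each of the 2324 flanking regions in replicate 1 (x axis) and replicate 2 (y axis), both on log scales, with a line of equal tags. Only peaks with an FDR of at most 10% are counted. Most points lie along the line. Those farthest below it at the right are long regions of replicate 1 with 1 short counted peak in replicate 2, such as 4587 against 218 tags.

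The flanking regions with the largest difference between replicates were those whose length differed. On chromosome 13 from 34453745 to 34478148, 24404 bp long, replicate 1 held 4587 tags and replicate 2 held 218, a log2 ratio of -4.41, with 188 and 138 tags per kb. It lay 114 bp from an H3K4me3 region. On chromosome 16 from 12337787 to 12361875, replicate 1 held 4953 tags and replicate 2 held 282 (-4.15), with 206 and 128 tags per kb. The peak of replicate 1 ended 2776 bp from H3K4me3, whereas that of replicate 2 was 24262 bp away, so only replicate 1 placed this region within the limit. On chromosome 2 from 101627608 to 101649090 the counts were 3984 and 421 tags (-3.26), and the gaps were 1486 and 13381 bp. Only peaks with an FDR of at most 10% were counted. By these, the 3 regions held a long peak of replicate 1 and a short peak of replicate 2. Peaks of replicate 2 above that FDR were not examined there.

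The opposite difference was smaller in size. On chromosome 10 from 21198188 to 21210277, replicate 1 held 332 tags and replicate 2 held 1670 (2.31). On chromosome 16 from 324980 to 331764 the counts were 251 and 950 tags (1.90), and the gap of 8634 bp in replicate 1 was beyond the limit while that of 4548 bp in replicate 2 was within it. On chromosome 3 from 147599454 to 147606989 they were 328 and 1138 (1.78). Tag density was 113 and 138, 122 and 140, and 165 and 151 tags per kb in these 3 regions. Of all the regions named for a difference between replicates, that on chromosome 16 from 12337787 to 12361875 differed most in density, with a log2 ratio of -0.70 that was the lowest of all flanking regions.

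The flanking regions with the most tags were long blocks, of which some were close to H3K4me3 and others near the limit. The region with the most tags after scaling to library totals, on chromosome 3 from 125550117 to 125581397, was 31281 bp long and held 6862 and 6612 tags with 43.64- and 46.12-fold enrichment. Its edge lay 236 bp from an H3K4me3 region of 83.78- and 116.5-fold enrichment that spans 125581633 to 125591191. That H3K4me3 region had an H3K27ac peak in both libraries, of 50.48- and 44.09-fold. The joint list leaves that peak out, and its FDR was above the limit in at least 1 library.

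The next, on chromosome 9 from 57544074 to 57569878, held 5922 and 6645 tags at a gap of 1504 bp and had the highest mean fold enrichment of all flanking regions, 40.77 and 56.31. The third, on chromosome 3 from 141153231 to 141170138, held 4556 and 4527 tags and lay 165 bp from H3K4me3. On chromosome 8 from 25834891 to 25866506 lay the longest flanking region, 31616 bp, with 5770 and 2597 tags and 182 and 172 tags per kb. Its gap was 3909 bp, and by the peaks of single libraries 4856 bp in replicate 1 and 5336 bp in replicate 2, beyond the limit. The fifth, on chromosome 2 from 243760522 to 243786942, held 5387 and 2836 tags at a gap of 4020 bp. The first 3 held similar tags in both animals, and the other 2 held fewer tags in replicate 2. A short region was also among the 3 of highest enrichment: chromosome 25 from 8738610 to 8742338, 3729 bp long, had 788 and 844 tags and 42.23- and 49.51-fold enrichment beside an H3K4me3 region without any H3K27ac peak.

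The region on chromosome 2 also held the most H3K4me3 tags in unlisted peaks, 2987 in replicate 1 and 1544 in replicate 2, at 30.53- and 33.17-fold enrichment. It was followed by a region on chromosome 10 from 84303183 to 84318590 with 1938 and 1200 H3K4me3 tags and one on chromosome 16 from 5651582 to 5670604 with 746 and 1796. All 3 were over 15 kb long, and their H3K4me3 enrichment of 25- to 33.17-fold was below the median of the listed peaks.

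Acetylation on both sides of 1 H3K4me3 region held the most tags at 3 loci. On chromosome 3, the H3K4me3 region from 175133690 to 175137785 had a flanking region of 2943 and 2504 tags at 2700 bp on its lower side and one of 1885 and 2930 tags at 491 bp on its higher side. On chromosome 11, the region from 20606809 to 20609864 had flanking regions of 3726 and 4079 tags at 596 bp and of 1083 and 1324 tags at 2221 bp. On chromosome 18, the region from 29512716 to 29515160 had flanking regions of 2711 and 2204 tags at 3752 bp and of 1501 and 1139 tags at 728 bp. The sides were unequal at each locus. On chromosomes 11 and 18 the lower side was higher in both replicates, and on chromosome 3 the order of the sides changed between them.

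**Figure D5:**
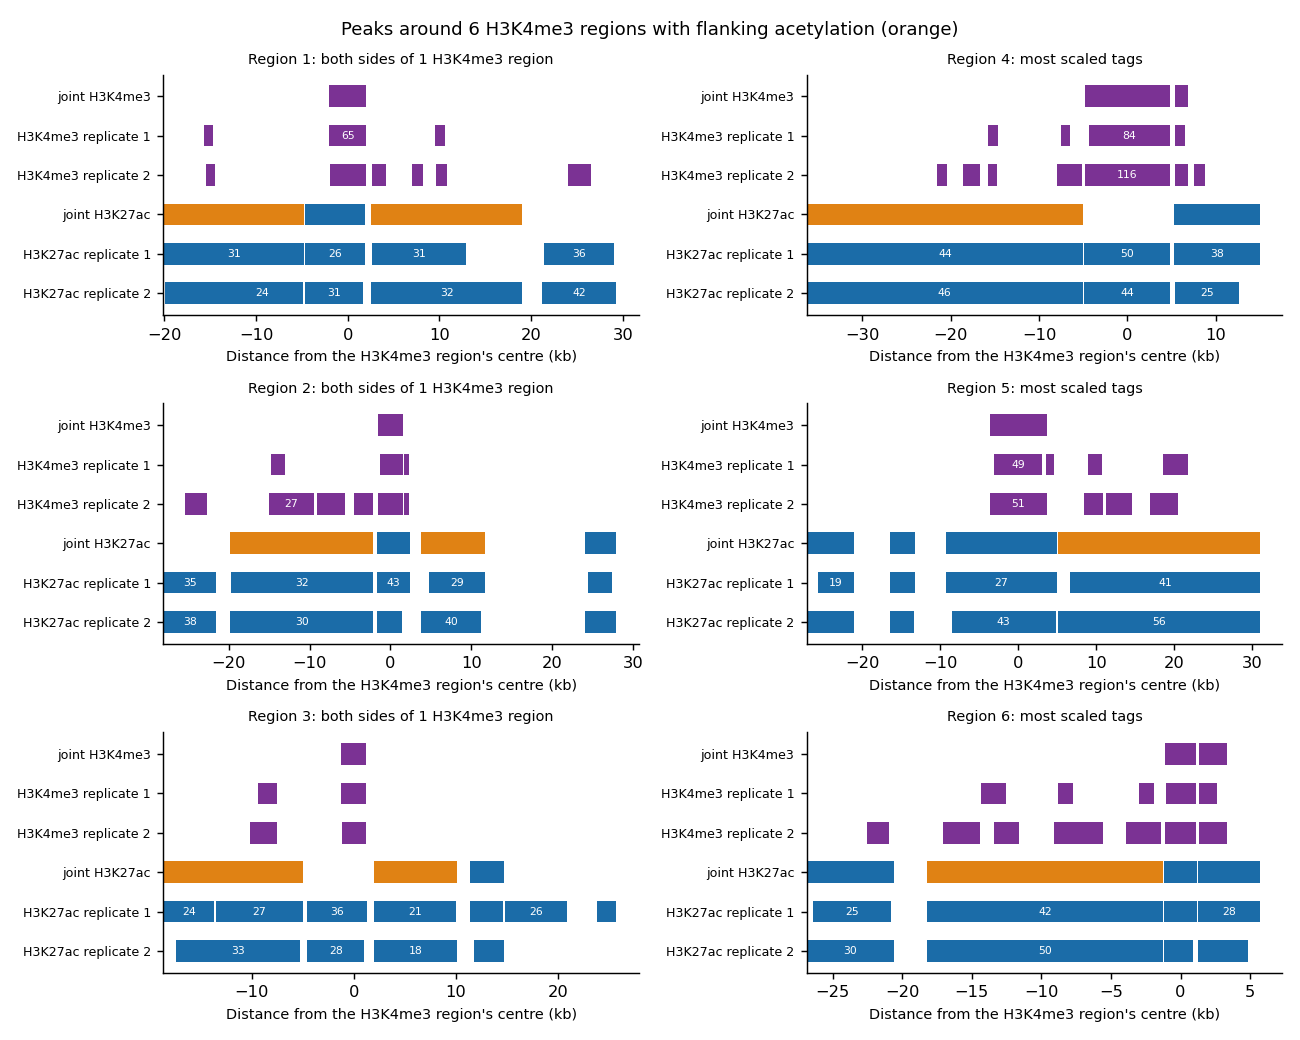
Joint regions and per-library peaks (H3K4me3 purple, H3K27ac blue, flanking regions orange) within 25 kb of 6 H3K4me3 regions, against distance from the region's centre in kb, with peaks drawn whole and fold enrichment written in peaks over 4 kb. Regions 1 to 3 are the loci on chromosomes 3, 11 and 18 with flanking acetylation on both sides, and regions 4 to 6 the 3 flanking regions with the most tags. In regions 3 and 4 both libraries have an H3K27ac peak over H3K4me3 that is absent from the joint list.

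The acetylation of a flanking region varied little with the strength of its H3K4me3 neighbour. Over the 2324 pairs, log2 tags of both marks had a Pearson correlation of 0.10 in replicate 1 and 0.16 in replicate 2. In log2 tags per kb it was -0.04 and 0.09. The log2 ratio between the animals in tags per kb had a correlation of 0.15 between the marks. All 5 are descriptions over pairs that share libraries and, in part, the H3K4me3 region, and none was large.

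On chromosomes with more H3K4me3 regions per Mb, flanking regions made up a larger share of the acetylation without H3K4me3. The share of H3K27ac regions without H3K4me3 that were flanking was highest on chromosome 11 (132 regions, 18.5%), followed by chromosomes 24 (16.0%) and 14 (15.2%), and lowest on chromosome 16 (42 regions, 5.72%). Across the 26 chromosomes this share had a Pearson correlation of 0.83 and a Spearman correlation of 0.78 with the number of H3K4me3 regions per Mb, a relation that the distance rule in part fixes. Per 100 H3K4me3 regions the order was another one, from 6.81 flanking regions on chromosome 14 and 9.09 on chromosome 20 to 19.7 on chromosome 7, with 16.2 on chromosome 11 and 12.6 on chromosome 24.

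The selective sweep regions of domestic sheep, taken from the study, overlapped 27 flanking regions (1.16%), near the 1.30% of all autosomal H3K27ac regions. The gene names given here are those that the study attached to a sweep, and no distance to a gene was measured. The sweeps named for GLI3, IRF1 and MAP3K8 contain no gene and carry the name of the closest one. The examples were chosen after their values were seen. A flanking region on chromosome 4 from 78817593 to 78820153 overlapped the sweep named for GLI3, a transcription factor of Hedgehog signalling, and ran past its end. This flanking region held 281 and 277 tags, 78 bp from an H3K4me3 region without an H3K27ac peak that lies outside the sweep. In the sweep named for AHR, a ligand-activated transcription factor, a region on chromosome 4 from 25878064 to 25879541 held 265 and 323 tags at 37.38- and 45.63-fold enrichment, also beside H3K4me3 without acetylation. Both were short regions of even counts in the 2 animals.

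In the sweep that contains SMAD6, an inhibitor of BMP signalling, a region on chromosome 7 from 13312944 to 13317271 held 556 and 258 tags, 166 bp from H3K4me3. In the sweep named for IRF1, an interferon regulatory factor, a region on chromosome 5 from 19475134 to 19479329 held 875 and 632 tags. In the sweep with PRKAA1, a catalytic subunit of the energy sensor AMPK, and TTC33, a region on chromosome 16 from 33653918 to 33657514 held 292 and 476 tags. All 3 lay beside listed acetylated H3K4me3 regions. The region of chromosome 13 with 4587 and 218 tags lay in the sweep named for MAP3K8, a kinase of inflammatory signalling, and both flanking regions of chromosome 18 described above lay in the sweep named for TBC1D2B.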

How the data were processed

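Reads were aligned by the authors to the Oar_v3.1 assembly, and MACS 1.4.2 was run on each library by itself at a p-value cutoff of 1e-05 against the pooled input. The deposited files give, for each peak, its position, the count of tags, the fold enrichment as a ratio to input, a score of -10 times log10 of the p-value and the FDR in percent. The deposited joint lists hold positions. The joint H3K27me3 list was used, its per-library values were not.

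Flanking regions were found from the joint lists with an overlap of at least 1 bp. The rule and the lists compared were chosen with earlier results of these data known. Each region took the summed tags, the length and the highest fold enrichment of the library H3K27ac peaks inside it with an FDR of at most 10%. Between libraries, tags were scaled to the filtered totals. Named regions were the 5 with the most scaled tags, the 3 longest, the 3 of highest mean fold enrichment, the 3 lowest and 3 highest ratios between replicates, the 3 with the most unlisted H3K4me3 tags and 3 loci flanked on both sides. Sweep regions came from the study's supplementary data. Intervals cover counting error only. The interval code was tested on simulated data. Alternatives covered the distance, FDR limits, overlap, chromosome X and each library alone. The code ran on Python 3.11.15 (pandas 2.3.3, numpy 2.4.6, matplotlib 3.10.9, scipy 1.17.1).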

Additional observations from a re-analysis of the deposited data

Results flagged for a closer look

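A signal lay outside the joint lists. When H3K27ac peaks of both libraries were merged with no FDR limit, 88 regions overlapped no joint H3K27ac region and lay 1 to 5000 bp from an H3K4me3 region. Their medians were 8997 bp, 1587 and 1461 tags and 36.2- and 35.8-fold enrichment in replicates 1 and 2, each above the medians of the 2324 listed flanking regions. Their peaks had an FDR above 10% in at least 1 library.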

How the results depend on the processing

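Of 56 alternatives to 12 results, 28 moved a value by more than its counting interval, 1.5 times a count or the spread between replicates. For the median gap this spread was an SD of 4.24 bp, from regions chosen in each library alone. The same flanking regions had median gaps of 2725 and 2545 bp in the 2 libraries. A gap counted as moved can therefore lie within the difference between libraries. Only the log2 ratio between replicates has a sign, which its 3 alternatives kept, and the contrasts of flanking with distal regions and the trends with distance were not recomputed. The number of flanking regions became 1111 with a limit of 2 kb, 4231 with 10 kb and 1318 with distance taken from the H3K27ac summit, and their share of regions without H3K4me3 became 4.22 and 16.1% with 2 and 10 kb. With 2 and 10 kb the share holding weak H3K4me3 was 60.5 and 50.4%, the median gap 786 and 4521 bp, with 10 kb the share with H3K27me3 was 1.51%, and with 2 kb the median length was 4194 bp and the fold enrichment of replicate 1 25.24. With no FDR limit on H3K27ac, the share beside acetylated H3K4me3 rose to 79.7%, the gap to 2169.5 bp and the length to 4380.5 bp. With either replicate alone, single peaks replace merged regions: there were 3936 to 4009 regions (10.7 to 11% of those without H3K4me3), 71.3 to 71.7% beside acetylated H3K4me3, 28.7 to 39.5% with weak H3K4me3 of that library, 1.45 to 2.34% with H3K27me3, a gap of 2212 to 2218 bp and a length of 3337 to 3416 bp. The causes were not tested. No paired analysis was possible because the results come from no test, and the libraries of an animal were matched only to describe both marks. The lists hold no reads, so acetylation below the peak threshold cannot be measured, and 2 libraries give only the difference between both animals.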
